A study of Mus musculus with 4 samples.

Results

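Plasma cells of mouse nasal mucosa were described in 4 droplet-based libraries made from CD45+ cells. Of 79132 deposited cell barcodes, 72320 passed the filters on single cells (at least 500 UMIs, at least 200 genes and under 10% mitochondrial UMIs; a UMI is a tag that marks 1 captured RNA molecule), and 1533 of those, or 2.12%, were plasma cells. A plasma cell had 2 or more UMIs over Tnfrsf17, Derl3 and Eaf2 and 5 or more over Mzb1, Txndc5 and Fkbp11, no UMI of Siglech, Cd3e or Cxcr2, and fewer than 2 UMIs over the 3 C1q genes. Members were thus chosen by the measured UMIs of these genes in the same cells, so the levels of these genes are given as description only. Jchain was not used, because its RNA was spread over other cells too.

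All mice were C57BL/6 and 8 weeks old, and the 4 groups, 1 library each, crossed 2 treatments: without OVA there were Vehicle and Ribavirin, and with OVA there were Vehicle-OVA and Ribavirin-OVA. Sets of 4 values below are in the order Vehicle, then Vehicle-OVA, then Ribavirin, then Ribavirin-OVA. OVA is ovalbumin, used to raise allergic rhinitis by sensitization with alum in the abdomen and then by nasal challenge, and ribavirin is an antiviral drug, here a nasal spray aimed at resident viruses. Mucosa was digested with enzymes and CD45+ cells were taken from the suspension (by magnetic beads per the labels, by flow sorting per the series text). The number of mice behind each library was not given in the sources used here, and with 1 library per group no difference below has a replicate check, no p-value was computed, and every interval covers counting error only.

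Plasma cells are the end stage of B cell differentiation and secrete antibody in bulk. The factors Irf4, Prdm1 and Xbp1 close down the B cell program and enlarge the endoplasmic reticulum (ER), where antibody chains are translocated, folded, glycosylated and assembled. In the airway and gut lining most of them make IgA joined by the J chain, are drawn in through the receptor CCR10 by the epithelial chemokine CCL28, and survive on BAFF and APRIL signals through BCMA and TACI. Dividing cells of the lineage that still carry some B cell genes are called plasmablasts.

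The gate took 800 of 25727 cells in Vehicle, 126 of 17498 in Vehicle-OVA, 399 of 20278 in Ribavirin and 208 of 8817 in Ribavirin-OVA. Plasma cells were thus 3.11% (exact 95% interval 2.90 to 3.33), 0.720% (0.60 to 0.857), 1.97% (1.78 to 2.17) and 2.36% (2.05 to 2.70) of the cells kept. The share with OVA was 0.232 of that without it under vehicle (0.190 to 0.280), and 1.20-fold that without it under ribavirin (1.01 to 1.42). Vehicle-OVA was the library set apart, with the fewest plasma cells in number and in share.

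These shares depend on the other cells in each library. Cells with Cxcr2 and S100a8 or S100a9 transcripts, the neutrophil genes, numbered 7679, 7924, 6944 and 2379 in the same order. Without any cell that held a Cxcr2 UMI in the denominator, plasma cells were 4.46%, 1.32%, 3.00% and 3.25%, and the OVA ratio was 0.295 under vehicle and 1.08 under ribavirin. A denominator that also left out cells with 5 or more S100a8 and S100a9 UMIs gave 5.07%, 4.74%, 4.19% and 4.09%, with OVA ratios of 0.936 and 0.976. That cut also met plasma cells themselves, which were kept in: 29.8%, 96.0%, 73.7% and 63.9% of them held 5 or more such UMIs, so in Vehicle-OVA the cut would have met nearly all of them. Against gated B cells (228, 192, 190 and 87 cells with 2 or more Cd79 UMIs and an Ms4a1 UMI), there were 3.51, 0.656, 2.10 and 2.39 plasma cells per B cell. The count of plasma cells in Vehicle-OVA was therefore low against all cells, against cells without Cxcr2 and against B cells.

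**Figure D1:**
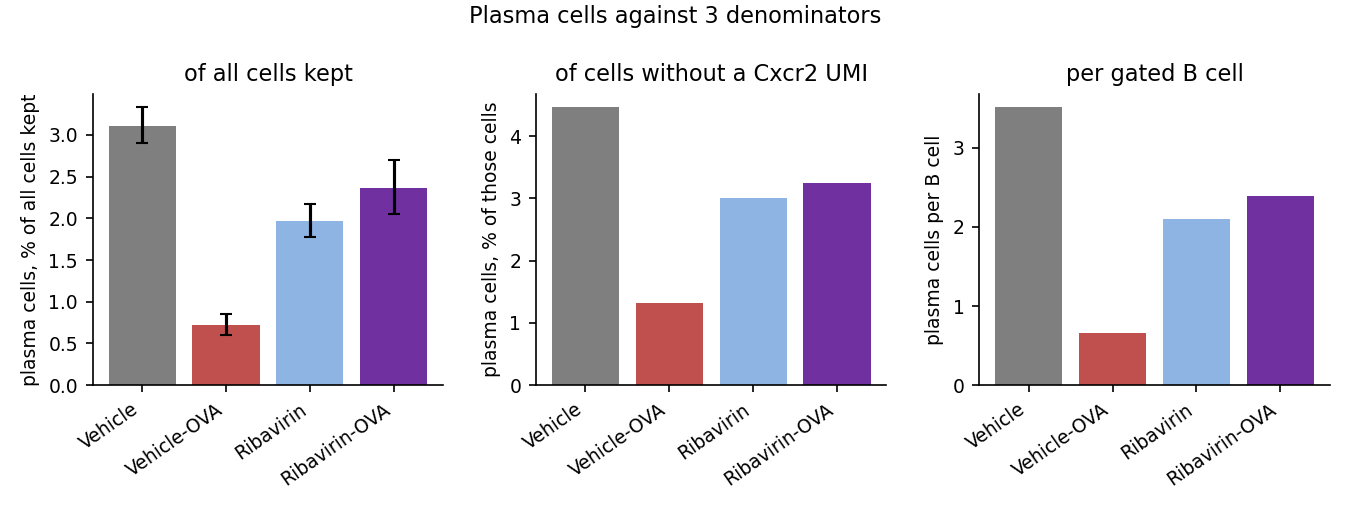
Plasma cells in each library (x axis) against 3 denominators on the y axes: percent of all cells kept (bars with exact 95% intervals), percent of cells without a Cxcr2 UMI, and number per gated B cell. Vehicle-OVA has the lowest bar in each panel, at 0.720%, 1.32% and 0.656.

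The label was checked against markers. Each of the 8 plasma cell markers given with the series stood higher in the members than in the other kept cells in every library, but 5 of the 8 are gate genes. Of 11 plasma cell markers that the gate did not use, 10 were above the other cells in each library, with a summed level of 11664, 12949, 8482 and 10248 counts per 1000000 UMIs (CPM), and Cd38 was the exception. A Sdc1 UMI, the marker of mature plasma cells known as CD138, was found in 88.2%, 89.7%, 86.7% and 90.4% of the members.

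A small set of members went against the label. Of the 1533, 65 (10, 5, 34 and 16) had no UMI of Cd79a or Cd79b, the antigen receptor's signalling chains, and 48 of the 65 had Jchain under 0.5% of their UMIs. Those 48 were 6, 1, 30 and 11 by library, and 5, 11, 3 and 14 members with Cd79a or Cd79b were also under 0.5%. Genes of nasal glands led them: Wfdc18 made up 12.2% of their UMIs in Vehicle and 15.0% in Ribavirin, with the odorant-binding proteins Obp2a, Obp1a and Obp1b and the lipocalin Lcn3 behind it, and Bpifa1 led in Ribavirin-OVA with 6.22%. Ptprc, which encodes CD45, was detected in 30.0%, 40.0%, 26.5% and 37.5% of these cells, against 66.1%, 95%, 75.1% and 91.7% of the members with Cd79a or Cd79b. Although few, they held 21.9% of all plasma cell UMIs in Ribavirin and 21.0% in Ribavirin-OVA, against 2.84% in Vehicle and 2.51% in Vehicle-OVA, so results that rest on them are also given for the 1468 members with a Cd79a or Cd79b UMI (790, 121, 365 and 192). At the edge of the gate, 15, 19, 21 and 17 cells lay just outside with 1 UMI in the first sum, and 14, 10, 11 and 16 just inside with 2, with a median Jchain of 3.50%, 0.748%, 0.00751% and 0.0136% of the UMIs in those just inside. Members well inside, with at least 3 and 20 UMIs in the sums, numbered 766, 108, 363 and 184.

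The gate's exclusions also mattered. They removed 1504 of the 3037 cells that met the positive criteria (49.5%), from 44.1% in Vehicle to 62.0% in Ribavirin-OVA, mostly for C1q UMIs, which mark macrophages. The removed cells had a median Jchain of 10.2%, 2.76%, 7.22% and 1.65% of their UMIs, near that of the members. Members had median depths of 9782, 14829, 12573 and 16273 UMIs and median mitochondrial shares of 2.85%, 3.86%, 2.81% and 4.20%, so both were higher in the OVA libraries. Of the members, 24 were marked as doublets (19 in Vehicle, 5 in Ribavirin), and 33 had a barcode found in another library, none as a member of both. Markers of other cells in the members summed to 502, 1796, 653 and 415 CPM for neutrophils (3.06% to 4.63% of their level in the other cells, with Cxcr2 at 0 by the gate), 388, 267, 318 and 268 CPM for macrophages, 3.56 to 8.27 CPM for eosinophils, 8.15 to 33.1 CPM for T cells, 5.27 to 23.4 CPM for NK cells and 0 to 2.29 CPM for mast cells and basophils. No marker of neutrophils, macrophages, T cells, NK cells or mast cells stood above the other cells. Of the 4 eosinophil markers, 2, 2, 1 and 2 did. B cell markers summed to 938, 909, 690 and 597 CPM and those of plasmacytoid dendritic cells to 1278 to 1603 CPM, with Siglech at 0 by the gate. Epithelial markers summed to 786, 179, 584 and 18200 CPM, against 1341, 2061, 6293 and 9434 CPM in the other cells. Of these 5 markers, 1, 1, 1 and 3 stood above the other cells.

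Jchain, which encodes the J chain (chromosome 5, 88519809 to 88527891, minus strand, GRCm38), was read as RNA only, and antibody output was not measured. Immunoglobulin segment and constant genes were not among the 27998 genes listed, so isotype could not be measured. Per cell, the median share of UMIs taken by Jchain was 11.4% in Vehicle (quartiles 6.55 and 16.8), 2.68% in Vehicle-OVA (1.14 and 6.48), 10.1% in Ribavirin (5.70 and 14.8) and 2.36% in Ribavirin-OVA (1.20 and 6.48). The lower quartile of each library without OVA was close to the upper quartile of each library with it. In summed UMIs, Jchain with OVA was 0.35 of its level without OVA under vehicle (0.348 to 0.353) and 0.405 under ribavirin (0.403 to 0.408). Neutrophils, which do not make it, held a Jchain UMI in 48.4%, 17.3%, 44.7% and 36.0% of cells thinned to 2000 UMIs, so the gene's free RNA was widespread and was also lower in both OVA libraries.

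**Figure D2:**
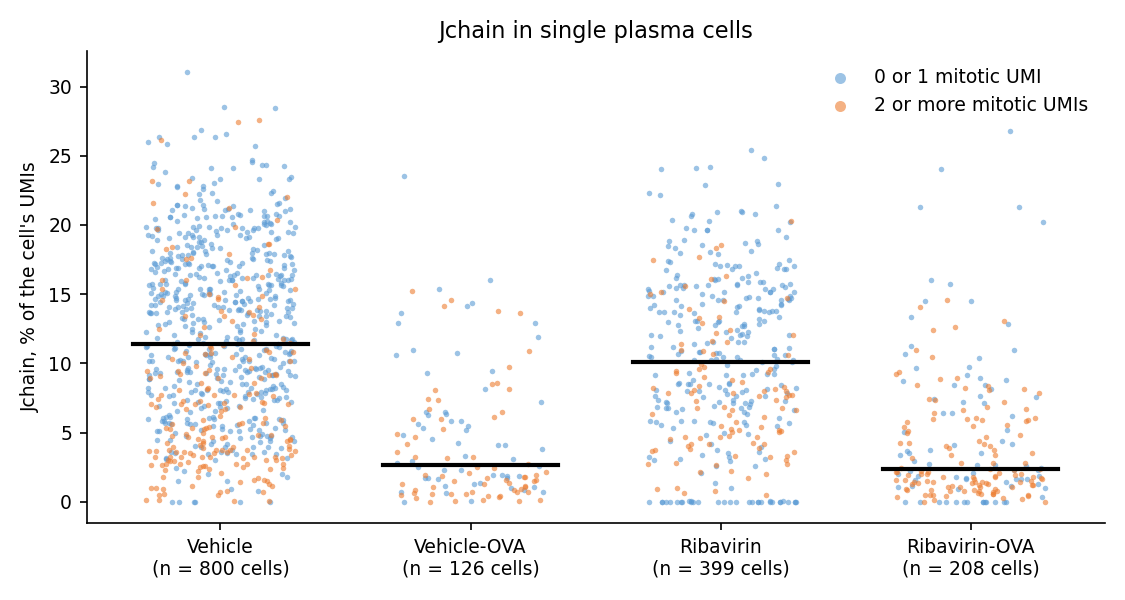
Jchain as a percent of each plasma cell's UMIs (y axis), 1 point per cell, by library (x axis), with cells that hold 2 or more mitotic UMIs in orange, other cells in blue and the median as a black line. Medians are 11.4% and 10.1% without OVA and 2.68% and 2.36% with it.

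Ccr10, the mucosal homing receptor (chromosome 11, 101172997 to 101175443, minus strand), stood at 486 CPM in Vehicle, 127 in Vehicle-OVA, 470 in Ribavirin and 113 in Ribavirin-OVA. Levels with OVA were 0.262 of those without it under vehicle (0.231 to 0.297) and 0.240 under ribavirin (0.218 to 0.265). The receptor was seen in 84.5%, 49.2%, 83.7% and 48.1% of plasma cells, and after every cell was thinned to 2000 UMIs in 53.0%, 17.1%, 56.3% and 26.5%, against at most 1.27% of neutrophils thinned the same way. Thinning left out 3 or 4 members per library, and median neutrophil depth was 2707 to 3557 UMIs. Most plasma cells thus carried Ccr10 without OVA, and the share was lower with OVA at equal depth as well.

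Prg2, which encodes the major basic protein of eosinophil granules (chromosome 2, 84980461 to 84983632, plus strand), was at 317, 70.4, 211 and 38.0 CPM. The OVA ratio was 0.222 under vehicle (0.187 to 0.262) and 0.180 under ribavirin (0.152 to 0.211). Cells with a Prg2 UMI were 62.6%, 29.4%, 65.2% and 26.0%, or 33.2%, 10.6%, 33.3% and 7.84% after thinning, against at most 0.883% of neutrophils. Of other eosinophil genes, the peroxidase Epx had no UMI in the members of any library, Ccr3 had 0, 2, 1 and 0, and Prg3, a homologue of Prg2, had 64, 4, 12 and 8. In thinned cells, Prg2 was found in 34.1%, 28.6%, 41.7% and 9.26% of those with Ccr10 and in 32.1%, 6.86%, 22.5% and 7.33% of those without, so the shares were close in Vehicle and apart in Ribavirin, where 93 cells held both. In the OVA libraries they rest on 6 and 5 cells that held both.

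Mki67, a proliferation marker (chromosome 7, 135689784 to 135716361, minus strand), ran the other way, at 176, 468, 144 and 424 CPM. It was 2.65-fold higher with OVA under vehicle (2.44 to 2.87) and 2.95-fold under ribavirin (2.73 to 3.20). The share of plasma cells with an Mki67 UMI was 36.6%, 60.3%, 34.3% and 64.4%, and 14.3%, 37.4%, 14.9% and 36.8% after thinning, above the 2.16% to 4.18% of thinned neutrophils. The ratios between ribavirin and vehicle lay nearer 1: Ribavirin over Vehicle was 0.967-fold for Ccr10, 0.666-fold for Prg2 and 0.815-fold for Mki67, and Ribavirin-OVA over Vehicle-OVA was 0.887-fold, 0.539-fold and 0.908-fold. In members with Cd79a or Cd79b, Ccr10 was 499, 131, 600 and 142 CPM and Mki67 with OVA was 2.64-fold and 2.92-fold, so the OVA ratios were as large without the members that lacked both genes.

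**Figure D3:**
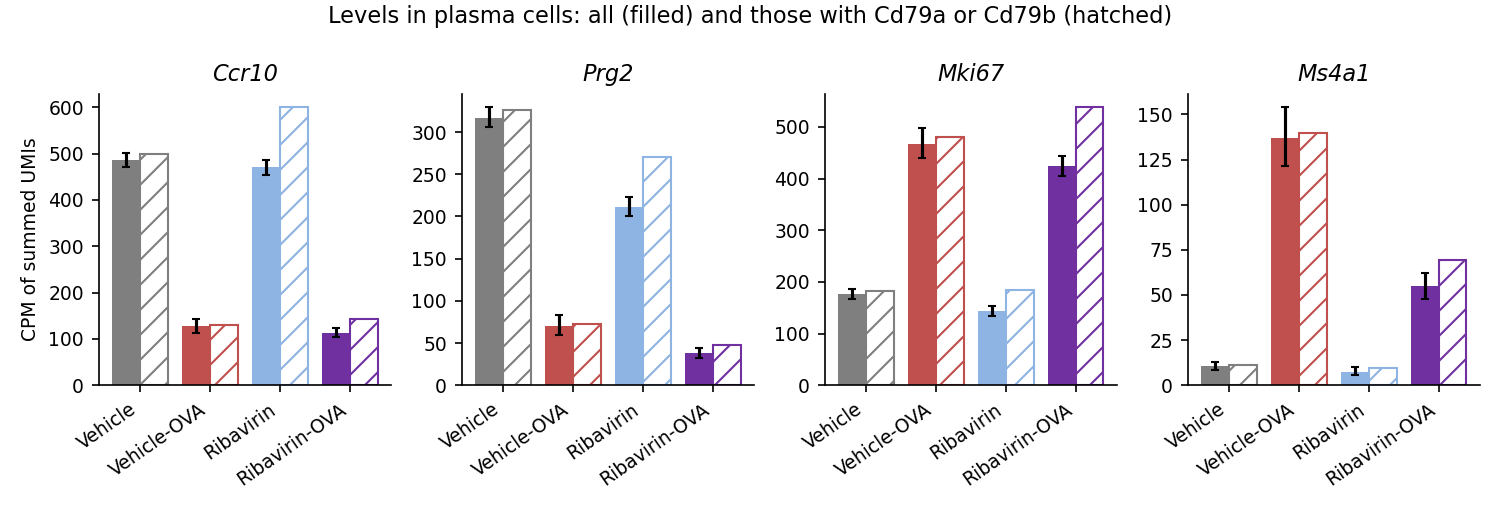
CPM (y axes) of Ccr10, Prg2, Mki67 and Ms4a1 in the plasma cells of each library (x axis), in all members (filled bars, exact 95% Poisson intervals) and in members with a Cd79a or Cd79b UMI (hatched bars). Ccr10 and Prg2 are lower and Mki67 and Ms4a1 higher in both OVA libraries.

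The cells were then read by state. Mitotic cells (2 or more UMIs over 12 mitotic genes such as Mki67, Top2a and Cdk1) were 209 of 800 in Vehicle (26.1%, 23.1 to 29.3), 67 of 126 in Vehicle-OVA (53.2%, 44.1 to 62.1), 102 of 399 in Ribavirin (25.6%) and 124 of 208 in Ribavirin-OVA (59.6%). At 2000 UMIs per cell they were 10.7%, 27.6%, 8.33% and 29.9%. Members with a UMI of the B cell genes Ms4a1 or Pax5 were 36, 44, 13 and 73. Cells with neither feature made up 70.9%, 34.9%, 71.7% and 32.2%, and cells with both numbered 12, 29, 2 and 56. By these genes the cells with neither were the nearest to resting plasma cells, but they include members without Cd79a or Cd79b. Of those members, the 34 in Ribavirin and the 16 in Ribavirin-OVA held no Ms4a1 UMI and none was mitotic. Of the members with a B cell gene, 33.3%, 65.9%, 15.4% and 76.7% were mitotic, against 25.8%, 46.3%, 25.9% and 50.4% of the rest, so the share was the higher one in all libraries but Ribavirin, where it rests on 13 cells. Depth was not held equal in this split.

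**Figure D4:**
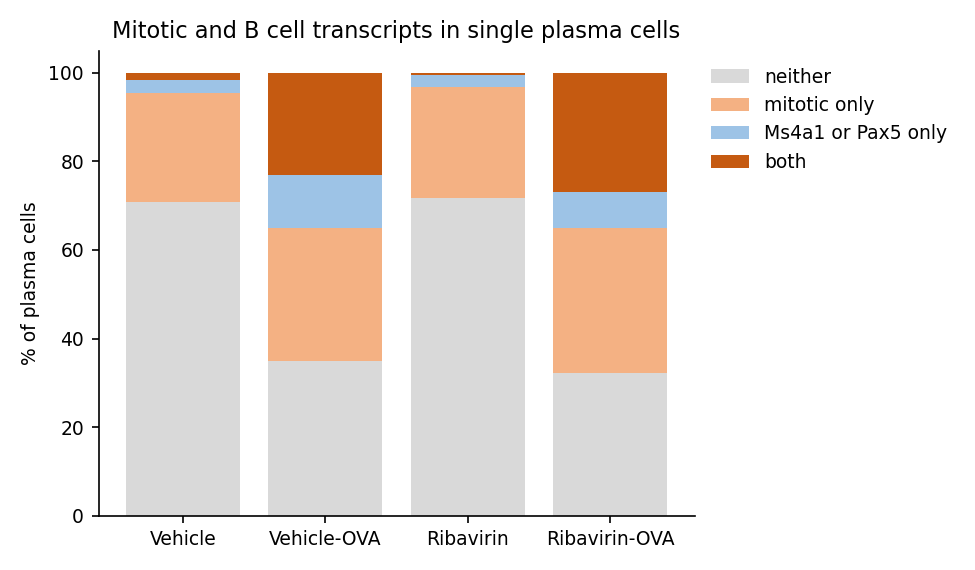
Percent of plasma cells (y axis) in each library (x axis) with neither mitotic nor B cell gene UMIs, with mitotic UMIs only, with Ms4a1 or Pax5 UMIs only, or with both, stacked to the whole. The part with neither is 70.9% and 71.7% without OVA and 34.9% and 32.2% with it, members without Cd79a or Cd79b included.

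Median Jchain per cell was lower in mitotic cells. It was 5.89% of UMIs in mitotic cells and 13.7% in the others in Vehicle, 1.85% and 4.10% in Vehicle-OVA, 7.32% and 11.5% in Ribavirin, and 2.08% and 3.16% in Ribavirin-OVA. In summed level the order was the opposite in Ribavirin-OVA, at 32561 CPM in mitotic cells and 28019 CPM in the others. Of the 1903857 UMIs in those others, 919857 lay in the 16 members without Cd79a or Cd79b, with Jchain at 1406 CPM. None of those 16 was mitotic. Members with Cd79a or Cd79b, which include every mitotic cell in that library, held Jchain at 38360 CPM. That is above the 32561 CPM of the mitotic cells, so without the 16 the others stood higher in summed level too. Members with a B cell gene had 3.58% against 11.8% in Vehicle and 1.18% against 5.43% in Vehicle-OVA. Within states the OVA ratios varied. Among members that were not mitotic (591, 59, 297 and 84 cells), Jchain with OVA was 0.397 and 0.362 of its level without, Ccr10 0.226 and 0.186, and Prg2 0.127 and 0.127. The ribavirin ratios include the members without Cd79a or Cd79b, which in Ribavirin held 1413998 of the 4612550 UMIs outside mitotic cells. Among members without a B cell gene (764, 82, 386 and 135 cells), the ratios were nearer 1, at 0.506 and 0.449 for Jchain, 0.399 and 0.294 for Ccr10 and 0.341 and 0.218 for Prg2. In the few members with a B cell gene, the ratios under ribavirin, from 13 and 73 cells, were 0.811 for Jchain and 0.777 for Ccr10 (0.469 to 1.34), against 0.275 and 0.234 under vehicle. In members with no Ccr10 UMI, Jchain with OVA was 0.237 of its level without under vehicle and 1.08-fold under ribavirin (1.06 to 1.10). In Ribavirin, the members with no Ccr10 UMI held 1918519 UMIs. The 34 members there without Cd79a or Cd79b held 1413998 UMIs, with Jchain at 767 CPM, and 2.94% of them held Ccr10. The ribavirin ratio thus leans on those cells, and it was not computed without them.

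Across the transcriptome, 10441 genes had at least 50 UMIs in plasma cells over the 4 libraries. On the log2 scale with 1 CPM added to both levels, 2270 genes were at least 2-fold higher and 384 at least 2-fold lower with OVA under vehicle (21.7% and 3.68% of those tested), and 2571 and 251 under ribavirin (24.6% and 2.4%). The median of all genes lay at 0.50 and 0.57, so 2-fold higher was a common value. Counts of list members past 2-fold with OVA below are to be read against these shares of all genes. The shift went with exon length: the tenth of genes with the shortest exons had medians of -0.24 and -0.21, and the tenth with the longest 0.73 and 0.86. Set against the median of all genes the split was 684 higher and 1072 lower under vehicle and 608 and 1024 under ribavirin, and against genes of like length 690 and 762, and 592 and 643. The 2 OVA comparisons share no library, and 1384 genes were past 2-fold higher in both, 135 lower in both and 72 in opposite directions. Among members with Cd79a or Cd79b, where 9809 genes were tested, 22.3% and 23.5% of genes were higher and 2.78% and 2.77% lower, with 1348, 133 and 18 in those classes.

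**Figure D5:**
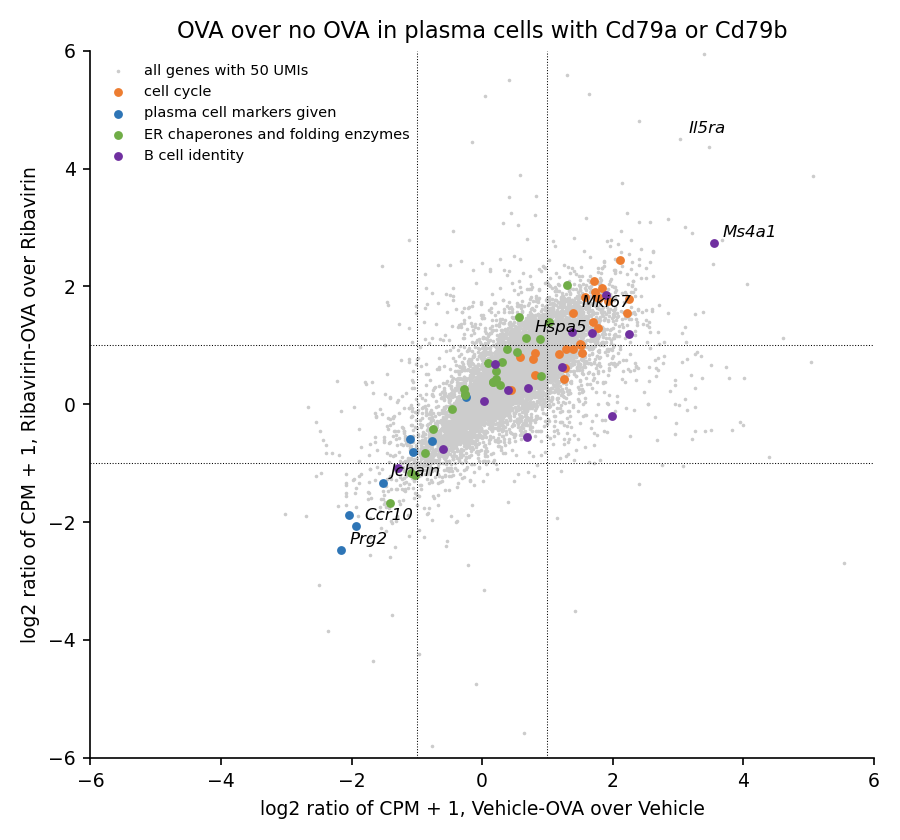
Log2 ratio with OVA over without OVA (1 CPM added) in plasma cells with Cd79a or Cd79b, under vehicle (x axis) and under ribavirin (y axis), 1 point per gene for 9809 genes, with gene lists in colour, dotted lines at 2-fold and 4 genes beyond the axes. Cell cycle genes lie in the upper right, and most points lie right of and above 0.

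Genes of the cell cycle were the clearest group above that background. Of 27 tested, 22 were past 2-fold higher with OVA under vehicle and 16 under ribavirin, none lower, with medians of 1.54 and 1.30. Top2a, which untangles DNA at mitosis, stood at 97.7, 339, 84.7 and 301 CPM, 3.47-fold and 3.55-fold. Rrm2, which makes the building blocks of DNA, was at 60.0, 201, 46.8 and 202 CPM, and the replication factor Mcm5 was 4.62-fold and 5.74-fold higher. Tubb4b, a tubulin, was at 171, 221, 201 and 194 CPM and passed 2-fold in neither. Among the 12 mitotic genes, 10 and 7 were higher and none lower.

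B cell identity genes were mixed. Of 13 tested, 7 were higher and 1 lower under vehicle and 5 and 1 under ribavirin, with medians of 1.22 and 0.65. Ms4a1, the B cell surface protein CD20 (chromosome 19, 11249675 to 11266241, minus strand), was at 10.7, 137, 7.43 and 54.7 CPM, 12.8-fold (10.1 to 16.4) and 7.36-fold (5.38 to 10.3) higher with OVA. In cells that were not mitotic the ratios were 14.1 and 1.80, and in Ribavirin-OVA mitotic cells held 85.1 CPM and the others 15.2 CPM. The 1.80 and the 15.2 CPM include members without Cd79a or Cd79b, which held no Ms4a1 UMI in Ribavirin or Ribavirin-OVA. Of the UMIs outside mitotic cells, such members held 1413998 of 4612550 in Ribavirin and 919857 of 1903857 in Ribavirin-OVA. Against this, Cd79a was at 534, 355, 393 and 235 CPM, and Cd52, a small surface glycoprotein, at 8180, 3374, 5938 and 2829 CPM was the member past 2-fold lower. Gated B cells held Ms4a1 at 964 to 1327 CPM and Ccr10 at 0 to 6.10 CPM, and gated plasmacytoid dendritic cells held Ccr10 at 0 to 4.17 CPM.

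Factors that set the plasma cell program were not past 2-fold lower with OVA. Of 14 regulators, 5 and 6 were past 2-fold higher and none lower, with medians of 0.82 and 0.96, but after centring on genes of like length none was past 2-fold in either direction and the medians were 0.31 and 0.22. Prdm1 (Blimp-1, the repressor of the B cell program) was at 189, 422, 155 and 321 CPM. Irf4 was at 201, 469, 170 and 357 CPM, and Xbp1, the driver of ER growth, at 3074, 4074, 1958 and 2649 CPM, 1.33-fold and 1.35-fold. Zbtb20, which supports long-lived plasma cells, was 3.07-fold and 3.22-fold higher, at 122, 374, 144 and 465 CPM. In CPM, Jchain was thus lower and Prdm1 and Irf4 higher in both OVA libraries.

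The secretory machinery split by gene. Of 24 ER chaperones and folding enzymes, 2 and 4 were past 2-fold higher and 3 and 3 lower, with medians of 0.20 and 0.41, below the median of all genes, and of -0.29 and -0.11 against genes of like length. The chaperone Hspa5 (BiP) was at 1894, 3036, 1580 and 3224 CPM, and Hsp90b1 (GRP94) at 5513, 8284, 3668 and 10181 CPM. Canx, a lectin chaperone, was at 203, 420, 185 and 475 CPM and the chaperone Hyou1 at 78.8, 200, 63.6 and 232 CPM. On the low side stood the prolyl isomerases Ppib, at 1844, 871, 1498 and 674 CPM, and Fkbp2, at 1458, 554, 1208 and 388 CPM, and the peroxiredoxin Prdx4, at 932, 461, 726 and 324 CPM. Dnajc3, a co-chaperone, was at 975, 719, 770 and 710 CPM. The gate used Txndc5 and Fkbp11 of the same machinery, so the list is a description of chosen cells.

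Promoters of this list were read because the ER stress response element (ERSE) is the known site through which ATF6 and XBP1 act on chaperone genes. The letters searched were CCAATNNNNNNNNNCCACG on both strands of the 300 bases from 250 before to 50 after each gene's start, in RefSeq sequence of GRCm38.p6. They occurred in 7 of the 24 chaperone promoters that were found (29.2%: Calr, Canx, Creld2, Dnajc3, Hsp90b1, Hspa5 and Pdia6) and in 35 of all 27025 promoters (0.130%). The promoters are printed 5′ to 3′ on the gene's strand for the chaperones with the most UMIs that hold it and for Dnajc3, the holder whose OVA ratios were below 1, with the fixed letters of the ERSE in capitals.
Hspa5, chr2:34771840-34772139, plus strand: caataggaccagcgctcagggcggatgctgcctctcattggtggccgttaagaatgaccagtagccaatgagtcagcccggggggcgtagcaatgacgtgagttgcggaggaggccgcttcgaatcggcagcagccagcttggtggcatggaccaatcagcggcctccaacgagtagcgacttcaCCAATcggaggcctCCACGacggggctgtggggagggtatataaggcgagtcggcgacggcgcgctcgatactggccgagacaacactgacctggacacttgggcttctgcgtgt
Hsp90b1, chr10:86705395-86705694, minus strand: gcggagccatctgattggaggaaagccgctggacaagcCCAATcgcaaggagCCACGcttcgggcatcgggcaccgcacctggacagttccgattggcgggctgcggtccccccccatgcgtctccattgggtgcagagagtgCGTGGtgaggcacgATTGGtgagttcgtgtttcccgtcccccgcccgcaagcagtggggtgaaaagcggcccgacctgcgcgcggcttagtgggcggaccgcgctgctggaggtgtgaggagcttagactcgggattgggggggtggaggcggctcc
Dnajc3, chr14:118937682-118937981, plus strand: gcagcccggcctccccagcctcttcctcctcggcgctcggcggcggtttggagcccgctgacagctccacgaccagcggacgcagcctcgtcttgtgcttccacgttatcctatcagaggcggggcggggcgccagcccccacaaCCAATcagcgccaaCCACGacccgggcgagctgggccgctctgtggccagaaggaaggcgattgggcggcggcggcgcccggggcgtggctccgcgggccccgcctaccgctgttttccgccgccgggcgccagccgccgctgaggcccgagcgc
The element began 65 bases before the start of Hspa5, 105 before that of Dnajc3, and 212 and 107 before that of Hsp90b1, the latter on the opposite strand. Dnajc3, whose level with OVA was 0.738-fold and 0.923-fold, holds the same letters as Hspa5, at 1.60-fold and 2.04-fold. No match was found in 17 translocation, 17 glycosylation or 11 regulator promoters, and Syvn1 was the 1 of 14 for degradation.

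Genes of ER translocation and signal peptide cleavage had medians of -0.17 and -0.07, with 1 of 22 higher and 1 lower in both comparisons. The translocon channel Sec61a1 was at 257, 538, 238 and 552 CPM, while Ssr4, a short subunit of the translocon-associated complex, was at 5120, 1576, 3906 and 1054 CPM. ER-associated degradation had 5 of 15 higher and none lower in both, with medians of 0.49 and 0.44, near those of all genes, and against genes of like length none was higher and 0 and 1 lower, with medians of -0.04 and -0.18. Its ubiquitin ligase Syvn1 was at 123, 306, 103 and 238 CPM. In glycosylation and Golgi transport, 4 of 21 were higher and 1 lower in both: Rpn1, of the oligosaccharyl transferase, was at 477, 1015, 357 and 1032 CPM and its small subunit Krtcap2 at 1620, 799, 1352 and 598 CPM. Against genes of like length, the log2 ratios were -2.13 and -2.38 for Ssr4, -1.52 and -1.65 for Ppib, -1.15 and -1.43 for Fkbp2, -1.07 and -1.31 for Prdx4 and -0.77 and -0.97 for Krtcap2. Ribosomal protein genes were past 2-fold lower in 7 and 18 of 80 and higher in none, with medians of -0.54 and -0.67. Of 17 integrated stress response genes 4 and 2 were higher and 1 and 1 lower, with medians of 0.58 and 0.22, and its factor Atf4 was at 234, 447, 256 and 477 CPM.

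Among 12 chemokine receptors, 2 and 3 were higher and 2 and 2 lower, with medians of -0.56 and 0.00. Cxcr4, which holds plasma cells near CXCL12, was at 61.6, 301, 57.4 and 265 CPM, 4.89-fold (4.35 to 5.50) and 4.61-fold (4.10 to 5.20) higher, opposite to Ccr10. After thinning, 10.7%, 39.0%, 12.1% and 39.2% of plasma cells held it, but thinned neutrophils did so in 50.8% to 61.4%, so the part of free RNA in this share cannot be told apart. Ccr9, the gut homing receptor, was at 19.9, 4.31, 18.7 and 7.55 CPM, and Ccr6 at 1.95, 17.2, 1.39 and 4.58 CPM. In adhesion and surface genes, 6 and 3 of 26 were higher and 6 and 7 lower, with medians of -0.06 and -0.21. The integrin chain Itga4 was 2.32-fold and 2.67-fold higher, while its partner Itgb7 was at 75.4, 37.4, 58.1 and 20.4 CPM. Cd44, the hyaluronan receptor, was at 173, 460, 144 and 367 CPM and Sdc1 at 298, 306, 239 and 323 CPM. The Ly6 surface proteins were lower with OVA: Ly6a was at 2112, 806, 1513 and 737 CPM, Ly6c2 at 1523, 587, 1220 and 459 CPM and Ly6d at 1152, 420, 1130 and 265 CPM.

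Receptors for the survival ligands BAFF and APRIL differed. Tnfrsf17 (BCMA), a gate gene, was at 340, 82.9, 284 and 78.0 CPM, Tnfrsf13b (TACI) at 240, 235, 163 and 192 CPM, and Tnfrsf13c, the BAFF receptor of B cells, at 31.3, 136, 18 and 101 CPM. Of the 19 receptor and survival genes, 5 and 4 were higher and 2 and 3 lower, with medians of 0.67 and 0.35. Of the death-blocking genes, Bcl2 was at 55.7, 30.7, 74.3 and 38.4 CPM and Bcl2l1 at 17.7, 94.9, 15.8 and 59.7 CPM. Bax, which promotes death, was at 122, 57.5, 94.0 and 39.1 CPM. Of 10 ligands of the niche, read in plasma cells, 3 and 2 were higher and 1 and 4 lower (medians 0.61 and 0.13). In the other cells the BAFF gene Tnfsf13b was at 15.9, 8.88, 13.0 and 9.72 CPM. The CCR10 ligand Ccl28 was at 5.52, 7.67, 53.3 and 20.6 CPM in the members, and at 0.237, 0, 2.97 and 5.80 CPM in those with Cd79a or Cd79b, so most of its UMIs lay in the members without either gene.

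Cytokine receptors had 7 and 6 of 18 higher and none lower, with medians of 0.53 and 0.71. Il5ra, the IL-5 receptor chain known from eosinophils and a class of B cells (chromosome 6, 106710357 to 106749037, minus strand), had 15, 45, 1 and 90 UMIs, found in 13 of 800, 25 of 126, 1 of 399 and 44 of 208 cells. Its ratio with OVA was 12.5 under vehicle and, from 1 UMI, 133 under ribavirin (23.3 to 5312). No cell held more than 6 of these UMIs, so they were not the product of a single cell, and gated B cells held 9.15, 12, 6.24 and 18 CPM. Il21r, the receptor of a helper T cell cytokine, was at 3.91, 24.0, 2.01 and 9.61 CPM and Il4ra at 4.94, 20.6, 4.49 and 14.0 CPM. Of 11 cytokines and effectors, 6 and 3 were higher and 2 and 4 lower (medians 1.60 and 0.33). Il10, an inhibitory cytokine, was at 17.0, 81.5, 22.0 and 45.3 CPM, against 9.93, 47.8, 9.77 and 44.2 in the other cells, and was found in 2.64%, 13.0%, 5.30% and 9.80% of thinned plasma cells and 0.632% to 2.43% of thinned neutrophils. The chemokine genes Ccl3 and Ccl4, at 266 and 308 CPM in Vehicle-OVA plasma cells, were at 2918 and 4080 CPM in that library's other cells.

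Slpi, which encodes a secreted inhibitor of leukocyte proteases (chromosome 2, 164354070 to 164389095, minus strand), was at 6382, 32084, 5169 and 15584 CPM. It was 5.03-fold higher with OVA under vehicle and 3.02-fold under ribavirin, and in the other cells it stood at 441, 2162, 400 and 1985 CPM. In Vehicle-OVA its level was 23468 CPM in mitotic cells and 49360 CPM in the others, and in Ribavirin-OVA the order was the opposite, at 18913 and 11271 CPM. In Ribavirin-OVA, 919857 of the 1903857 UMIs outside mitotic cells lay in the members without Cd79a or Cd79b, with Slpi at 521 CPM. None of those members was mitotic. Members with Cd79a or Cd79b, which include every mitotic cell in that library, held Slpi at 19600 CPM, above the 18913 CPM of the mitotic cells. Without the members that lack both genes, the others thus stood higher, as in Vehicle-OVA. The gene was thus high in plasma cells of all libraries and was higher with OVA also outside them.

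Among metabolic and response genes, a higher share of the glycolysis list was past 2-fold under vehicle than of all genes. Glycolysis and hypoxia genes had 10 and 4 of 19 higher and none lower (medians 1.13 and 0.72). Against genes of like length, 4 and 3 of them were higher and none lower, with medians of 0.48 and 0.12. Without that centring, nuclear genes of oxidative phosphorylation had 0 and 0 of 23 higher and 1 and 0 lower (-0.24 and -0.28). Amino acid transport and mTORC1 genes had 5 and 4 of 14 higher and 0 and 1 lower (0.69 and 0.72). The transporter Slc7a5 was at 62.4, 193, 77.4 and 176 CPM. Interferon-stimulated genes had 10 and 1 of 22 higher and 3 and 4 lower (0.87 and 0.13). Isg15, the ubiquitin-like protein of this response, was at 77.9, 32.1, 52.2 and 17.4 CPM. MHC class II genes had 4 and 1 of 10 higher and 0 and 1 lower (0.89 and 0.36), and H2-DMb2, of the peptide-loading complex, was at 4.48, 32.6, 3.25 and 21.3 CPM. Immediate early genes, which also answer tissue digestion, had 8 and 2 of 20 higher and none lower (0.71 and 0.16), with Egr1 at 168, 603, 225 and 517 CPM.

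Ranked over all genes, those with the largest OVA ratios of 1 sign in both comparisons included Rgs5, Il5ra, Ahsg, Ms4a1, Etl4, Clca3a2, Lmo7, Gnaz and Cdc6 on the high side. Of these Rgs5, a pericyte gene, rested on few cells, since 97.7% of its UMIs in Vehicle-OVA lay in 1 cell. On the low side stood Bpifb9b, Bpifb9a, Bpifb5, 2310003L06Rik, Odam, Bpifb6, Cabs1, Bglap3, Lcn3 and Dmbt1, and Bpifb9b had 4782, 1, 58988 and 58 UMIs. Nasal gland genes as a list were past 2-fold lower in 11 and 7 of 12 and higher in 1 and 2, with medians of -5.37 and -1.46, and in members with Cd79a or Cd79b lower in 3 and 6 and higher in 2 and 3, with medians of -0.10 and -1.26. In members with Cd79a or Cd79b the high side held Il5ra, Ms4a1, Etl4, Gnaz, BC030867, Actr3b, Mpzl2, Cdc6 and Shisa8. Etl4 was there at 6.5, 45.2, 7.93 and 53.0 CPM, and Cdc6, which licenses DNA replication, at 5.32, 29.0, 3.37 and 24.6 CPM. The low side held Rnase2b, Prg2, Ccr10, Gm5914, Gm16124, Trf, Gm19585, Tnfrsf17, 1810034E14Rik and Runx2os1. Rnase2b, an eosinophil-type ribonuclease, was at 14.3, 1.97, 13.5 and 0 CPM, and Trf, transferrin, at 282, 74.7, 289 and 76.5 CPM, 0.265-fold in both. Prg2 and Ccr10 came next after Rnase2b in that order.

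Among genes whose level in plasma cells was below that of the other cells, Ccl24, a chemokine for eosinophils made by macrophages, had no UMI in plasma cells without OVA and 32.6 and 12.6 CPM with it, at least 94.5-fold and 27.1-fold higher against a floor of 3 UMIs per library. The other cells of the OVA libraries held it at 815 and 492 CPM. Chil4, a chitinase-like protein of airway epithelium, was at 0.115, 11, 3.56 and 3151 CPM against 10.3, 262, 197 and 4458 in the other cells. In Ribavirin-OVA 34.3% of its UMIs in plasma cells lay in 1 cell, and in the members with Cd79a or Cd79b it was at 343 CPM there. Spp1, Gatm and C3 completed this set.

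Ribavirin over vehicle moved fewer genes than OVA did before centring: 605 were past 2-fold higher and 57 lower without OVA (5.79% and 0.546%, together 6.34%), and 896 and 262 with OVA (8.58% and 2.51%, together 11.1%), with medians of -0.12 and -0.09. The gap was smaller with the OVA ratios set against genes of like length, as given above. In members with Cd79a or Cd79b these were 198 and 26 (2.02% and 0.265%, together 2.28%), and 356 and 200 (3.63% and 2.04%, together 5.67%). Of 12 nasal gland genes, 10 and 12 were higher, and 12 and 11 in members with Cd79a or Cd79b. Cell cycle genes, regulators, chaperones, translocation, degradation and glycosylation genes had none past 2-fold in either direction, with or without OVA. In the interferon list 4 and 1 were higher and 0 and 3 lower (0 and 0, and 0 and 3, in members with Cd79a or Cd79b), in B cell identity 0 and 0 higher and 0 and 3 lower, and in cytokines and effectors 0 and 0 higher and 1 and 5 lower. By the naming rule, Dmbt1, Vmo1, Gpx6, Obp2a and Bpifb3 were highest over vehicle, and Gm8879, Bcar3, Mnd1 and Qrsl1 were among the lowest. With Cd79a or Cd79b, Hist1h2ap, a replication-dependent histone gene, was at 19.0, 80.6, 46.8 and 231 CPM, 2.46-fold and 2.86-fold higher with ribavirin, followed by Slc1a4, Tacc2, Ccbl2 and Tmem163, and Gm8879 was at 10.4, 17.2, 3.57 and 8.98 CPM.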

How the data were processed

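For each of the 4 libraries the authors deposited a matrix of UMI counts per gene and cell barcode, not normalized, made with Cell Ranger 5.0.0 on mm10 per the submitters' processing notes. From these counts, cells were filtered and gated as the report states, the UMIs of the members were summed per library, and levels are counts per 1000000 of the members' own UMIs (CPM). The members' summed depth was 8702554 UMIs in Vehicle, 2086904 in Vehicle-OVA, 6459630 in Ribavirin and 4370157 in Ribavirin-OVA. Shares carry exact Clopper-Pearson, levels exact Poisson and ratios exact conditional binomial 95% intervals. With 1 library per group no test was run, and past 2-fold means a log2 ratio of at least 1 in size with 1 CPM added, over genes with at least 50 UMIs. The procedure was checked on simulated counts. Doublets were marked per library with Scrublet in scanpy (expected 0.4% per 1000 barcodes), which marked fewer than expected, and were left in. The plasma cells and the gene lists were chosen with earlier results of these data known, and lists of mitotic, germinal centre and gland genes were added after the values were seen. Of the listed symbols, 10 were not found. Named outside the lists were the genes with the largest ratio of 1 sign in both comparisons, by the one nearer 0, among genes at or above the other cells where they were higher (up to 10 in each direction for OVA, up to 5 for ribavirin and 5 below the other cells). Some genes are not reported here. Positions and exon lengths are from GENCODE M21, in which 99.9% of the tested identifiers matched, and promoters from RefSeq. Python 3.11.15, numpy 2.4.6, scipy 1.17.1, pandas 2.3.3, scanpy 1.11.5 and matplotlib 3.10.9 were used. Alternatives changed the filters, the gate, the denominator, the scaling, the pseudocount and the gene minimum.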

Additional observations from a re-analysis of the deposited data

Results flagged for a closer look

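The share of plasma cells, and 4 of the genes in the lists, went opposite ways in the vehicle and the ribavirin comparison of OVA with no OVA, the genes by 2-fold or more each way. Over all 10441 genes tested 72 did so, and 18 of 9809 in members with Cd79a or Cd79b. None of these differences was tested. The share of plasma cells among the cells kept was 0.232 of its level without OVA under vehicle and 1.20-fold under ribavirin. The ribavirin ratio had a counting interval that began near 1. Without neutrophil transcripts in the denominator, both ratios were below 1, as given above. Bpifa1, an airway secretory protein, had log2 ratios of -1.58 under vehicle and 7.38 under ribavirin, and Reg3g, an antibacterial lectin, -3.67 and 6.40, and in the members without Cd79a or Cd79b Bpifa1 made up 6.22% of the UMIs in Ribavirin-OVA and Reg3g 1.59% in Vehicle. H2-Oa, which tunes peptide loading on MHC class II, had 1.20 and -1.04. S100a9, a neutrophil protein, had 1.72 and -1.03, and the summed neutrophil markers in plasma cells were 502, 1796, 653 and 415 CPM in the order used above, against 16406, 38744, 21313 and 12263 CPM in the other cells.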

How the results depend on the processing

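No paired analysis was possible because each group has 1 library and the labels carry no replicate numbers. Ratios are Vehicle-OVA over Vehicle (V), Ribavirin-OVA over Ribavirin (R), Ribavirin over Vehicle (N) and Ribavirin-OVA over Vehicle-OVA (O), and numbers of genes are those past 2-fold. Of 208 repeats of the main results, 118 stayed within the main counting interval (for numbers of genes, within 1.5 times). Another 87 moved beyond it, ratios on the same side of 1 and numbers of genes up or down, and 3 ratios reversed. Of 104 repeats for single genes under ribavirin over vehicle, 11 reversed. Over the repeats, OVA ratios under vehicle ranged from 0.291 to 0.506 for Jchain, 0.0586 to 0.399 for Ccr10, 0.127 to 0.341 for Prg2 and 1.03 to 2.71 for Mki67, and the cause of the moves below was not tested.
A mitochondrial limit of 5% gave V 0.184 for the share, 0.329 for Jchain and 0.164 for Prg2, R 0.269 for Ccr10, 0.145 for Prg2 and 3.42 for Mki67, and O 1.09 for Mki67. Lower gate sums gave V 0.280 for the share. The positive criteria alone (added after seeing the data) gave V and R of 0.294 and 1.63 for the share, 0.422 and 0.546 for Jchain, 0.307 and 0.339 for Ccr10, 0.267 and 0.228 for Prg2 and 1.89 and 4.98 for Mki67, O 1.11 for Mki67, and 4348 (R) and 1715 (N) genes. Gating after thinning gave shares R 1.42 and N 0.492. Without neutrophil transcripts in the denominator, the share was V 0.936, R 0.976, N 0.826 and O 0.862, so R and O reversed, without cells with Cxcr2 V 0.295 and O 2.47, and per B cell V 0.187. Higher gate sums gave Jchain V 0.364, R 0.454 and O 1.00, Ccr10 R 0.265, Mki67 O 1.04, and 359 (N) and 578 (O) genes. Leaving out doublets, and leaving out shared barcodes, each gave Jchain V 0.347.
Members with Cd79a or Cd79b (added) gave Jchain V 0.347, R 0.398 and O 1.04, Mki67 N 1.01 and O 1.12, and 224 (N) and 556 (O) genes. Without cells with 2 or more cell cycle UMIs, which left 146, 11, 40 and 9 cells, Jchain was V 0.316, R 0.367 and O 1.05, Ccr10 V 0.0586, Prg2 V 0.127, R 0.215 and O 1.10, and Mki67 V 1.46, R 6.53 and O 2.93. Without mitotic cells (added), Jchain was V 0.397 and R 0.362, Ccr10 0.226 and 0.186, Prg2 0.127 and 0.127, Mki67 1.03 and 0.895, a loss that the choice of cells by Mki67 itself brings, and 2130 genes moved for O. Without cells with Ms4a1 or Pax5 (added), V and R were 0.506 and 0.449 for Jchain, 0.399 and 0.294 for Ccr10, 0.341 and 0.218 for Prg2 and 1.90 and 2.01 for Mki67. The mean over single cells gave Jchain V 0.389 and R 0.436, Mki67 R 3.68 and O 1.28. Scaling without Jchain, mitochondrial and ribosomal protein genes gave Jchain V 0.291 and R 0.354, Ccr10 0.218 and 0.210, Prg2 V 0.184, and Mki67 2.20 and 2.58.
At least 20 UMIs per gene gave 1792 genes for O, and at least 200 gave 1641 (V), 1753 (R), 254 (N) and 402 (O). A pseudocount of 10 CPM gave 807, 836, 171 and 471, centring on all genes 1756 (V) and 1632 (R), centring on genes of like length 1452 (V) and 1235 (R), and only genes at or above the other cells 1456, 1349, 243 and 414. With 126 and 208 plasma cells in the OVA libraries, shares there carry the widest counting intervals, and no repeat replaces a second library.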

Other observations

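Germinal centre genes were not described above. Of 4 tested, 3 were past 2-fold higher with OVA under vehicle and 1 under ribavirin, none lower, with medians of 1.49 and 0.80. Over all genes 21.7% and 24.6% were past 2-fold higher, and this list was added after the values were seen. Bcl6, the factor of germinal centre B cells, was at 2.87, 17.7, 4.49 and 17.6 CPM in the order used above, and its UMIs lay in 20, 16, 21 and 25 plasma cells. Vegfa, a vascular growth factor, was at 15.6, 52.2, 19.7 and 66.4 CPM, 3.34-fold and 3.38-fold higher with OVA. Myc, which drives growth, was at 12.9, 39.8, 17.0 and 30.0 CPM. Pigr, the epithelial receptor that carries IgA across the mucosa, was at 1.77, 7.37, 23.6 and 219 CPM in plasma cells with Cd79a or Cd79b. Il5, the ligand of the receptor that Il5ra helps to form, was at 0.344, 1.05, 0.698 and 7.78 CPM in the other cells.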
